A study of Rattus norvegicus with 22 samples.

Results

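Cytosolic ribosomal proteins are the protein parts of the ribosomes that work in the cytoplasm, and their messenger RNAs were followed here in rat tongue tumours and the tongue tissue beside them. Members were genes whose full array symbol was Rpl or Rps and a number, optionally followed by a, x, y or l and digits. Rpsa, Rplp0, Rplp1 and Rplp2 were added, and the array description had to name a ribosomal protein and no kinase. The rule gave 78 genes, read by 142 of the 30367 non-control probes on the array, and the brightest probe of each gene over all 22 arrays stood for it. Of the 78 genes, 47 encode proteins of the large subunit and 31 encode proteins of the small subunit. One gene with a matching symbol, Rpl7l1, was left out because its description did not name a ribosomal protein.

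The tissue came from 11 male F344 rats exposed to 4-nitroquinoline-1-oxide (4-NQO), a carcinogen that forms bulky DNA adducts, given with their water for 10 weeks at a dose of 20 ppm. Each rat gave 1 oral squamous cell carcinoma (OSCC) of the tongue and 1 piece of phenotypically normal tongue from an adjacent area, collected 23 to 26 weeks after the first dose at an age of about 33 weeks. The sample titles call the rats untreated for both tissues and the treatment label gives none for the normal pieces, while the collection protocol takes both tissues from the same carcinogen-treated animals, so both groups shared the exposure. RNA of each piece was labelled with 1 dye and hybridised to 1 array, which gives 11 pairs and no repeat of a piece. Values are log2 expression, meaning the log2 of a probe's processed signal relative to the 75th percentile of its own array, and a difference is OSCC minus normal of the same rat.

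The ribosome is built from ribosomal RNA and one copy of most ribosomal proteins, so cells make these proteins in matched amounts. Their messenger RNAs are among the most abundant of a cell and typically start with a C followed by a run of pyrimidines, the 5′ terminal oligopyrimidine (TOP) tract, through which growth signalling by mTOR controls their translation. Because translation is the controlled step, the level of these messenger RNAs need not follow the rate at which ribosomes are made, and several of the genes serve as reference genes in expression studies.

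Start sites are shown for members and paralogs on which the results below turn, because the tract sets the class apart from most other genes. RefSeq sequences on the GRCr8 build held a promoter entry for 62 of the 78 members. At the annotated start, 24 of these 62 (38.7%) had a C followed by 4 bases that were each C or T, read on the strand of the gene, against 2.63% of all 33469 promoters of the same length. The share was 3.33% among 60 entries of mitochondrial ribosomal protein genes and 4.62% among 65 entries of ribosome biogenesis genes. Among 50 entries of initiation and elongation factor genes, 0 had such a start. Each window below holds 10 bases before the start and 15 from the start onward, 5′ to 3′, with the tract in capitals.
Rplp0, chr12:46718376-46718400, minus strand: caccgcacttCTCTCgccaggcgtc
Rpl37, chr2:55942935-55942959, plus strand: ggcgtactttCTCTTCCggtctctt
Rpl19, chr10:83519054-83519078, plus strand: ccagcaagctCTTTCCTTTCgctgc
Rpl26, chr10:54109682-54109706, plus strand: gtcaacttacagaaccggaagtcgc
Rpl22, chr5:168117951-168117975, plus strand: gcgcccccctCCCTTTCTgcctcct
Rpl22l1, chr2:113683186-113683210, plus strand: gtggatatccggttccgagttgcgc
Rps27, chr2:177964592-177964616, minus strand: cgctttcgctCCTTTCCggcggtga
Rps27l, chr8:76443648-76443672, plus strand: ttcatttgtcattatttgtggtgtc
Rpl3, chr7:113507976-113508000, minus strand: gcctgctcgatctctatcggcggcg
Rpl3l, chr10:14258436-14258460, plus strand: ctggtgcctggtggggaggtccctt
In each of the pairs Rpl22 with Rpl22l1 and Rps27 with Rps27l, the first gene had the tract and the paralog did not. Neither Rpl3 nor Rpl3l had one at the annotated base, and an entry without the tract says only that these letters are not at this position.

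The 78 transcripts changed little, and they did so together. No member differed by 2-fold or more between OSCC and normal, while 13.8% of all probes passed an adjusted p below 0.05 with at least a 2-fold difference. The mean difference lay between -0.72 for Rpl10l and 0.01 for Rpl19, with a median of -0.27, and 76 of the 78 members lay within 0.5 of 0, against 50.9% of all probes and 62.0% of the 3037 brightest probes. The difference also varied little from rat to rat, with a median SD over the 11 pairs of 0.25 for members, 0.736 for all probes and 0.427 for those 3037, to which 76 of the members belonged. On all 22 arrays 77 members had signals that the scanner software marked as well above background, the exception being Rpl10l, and no member had a saturated spot.

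On the 75th percentile scale 37 of the 78 members (47.4%) fell in OSCC and none rose by limma with Benjamini-Hochberg adjustment over all probes. On the same scale 27.9% of all probes fell and 16.2% rose, and 40.3% of the 3037 brightest fell. At an unadjusted p below 0.05, 49 members were lower and 0 were higher, and the methods' paired t-test, run on the same values, called 60 lower and 0 higher before adjustment and 52 lower and 0 higher after it. No share of all probes is given beside these counts, so they are not set against the array. The count of 37 moved with single rats, and was 19 without animal 9, 22 without animal 11 and 22 without animal 25. The median over all probes was itself -0.24 on this scale, so the members lay 0.03 below the array as a whole.

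The direction depended on the scaling. After quantile normalization the median member difference was 0.13 against -0.03 for all probes, 11 members rose (15.9% of all probes did) and 1 fell (18.7% did). Cyclic loess gave a median of 0.14, with 18 members higher (17.5% of all probes) and 1 lower (16.9%), and all 11 of the members that rose after quantile normalization were among these 18. Subtraction of the array median moved the other way, with 67 members lower, none higher and a median of -0.47, where the median of all probes was -0.44 and 45.7% of all probes fell. The split of all probes passing moved with the scaling as well, since 36.7% of them were higher in OSCC on the 75th percentile scale, 45.9% after quantile normalization and 19.5% on the array median scale. Scaling to the 75th percentile of detected probes left 18 members lower (17.9% of all probes) and the authors' own scaled values 33 (18.9%). Background correction by normexp left 1 member lower (6.55%) and 0 higher (5.36%), and none of the members was among the 5.6% of probes called at 2-fold there. No member reached 2-fold under any of these scalings.

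Scan day bears on all these values. No slide held both tissues: the normal arrays filled 3 slides scanned on 1 day, and of the OSCC arrays only those of animals 4 and 9 were scanned on that day. In these 2 pairs the median member difference was -0.43, and in the other 9 it was -0.24. With scan day as a term in the fit, the tissue difference came from the pairs of animals 4 and 9 alone, so it was no separate estimate. The median was again -0.43, beside -0.39 over all probes, and no member passed, while over all probes 3 passed. At an unadjusted p below 0.05, 11 members were lower and 0 higher, with no share of all probes given beside them. Slide and tissue cannot be told apart.

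**Figure D1:**
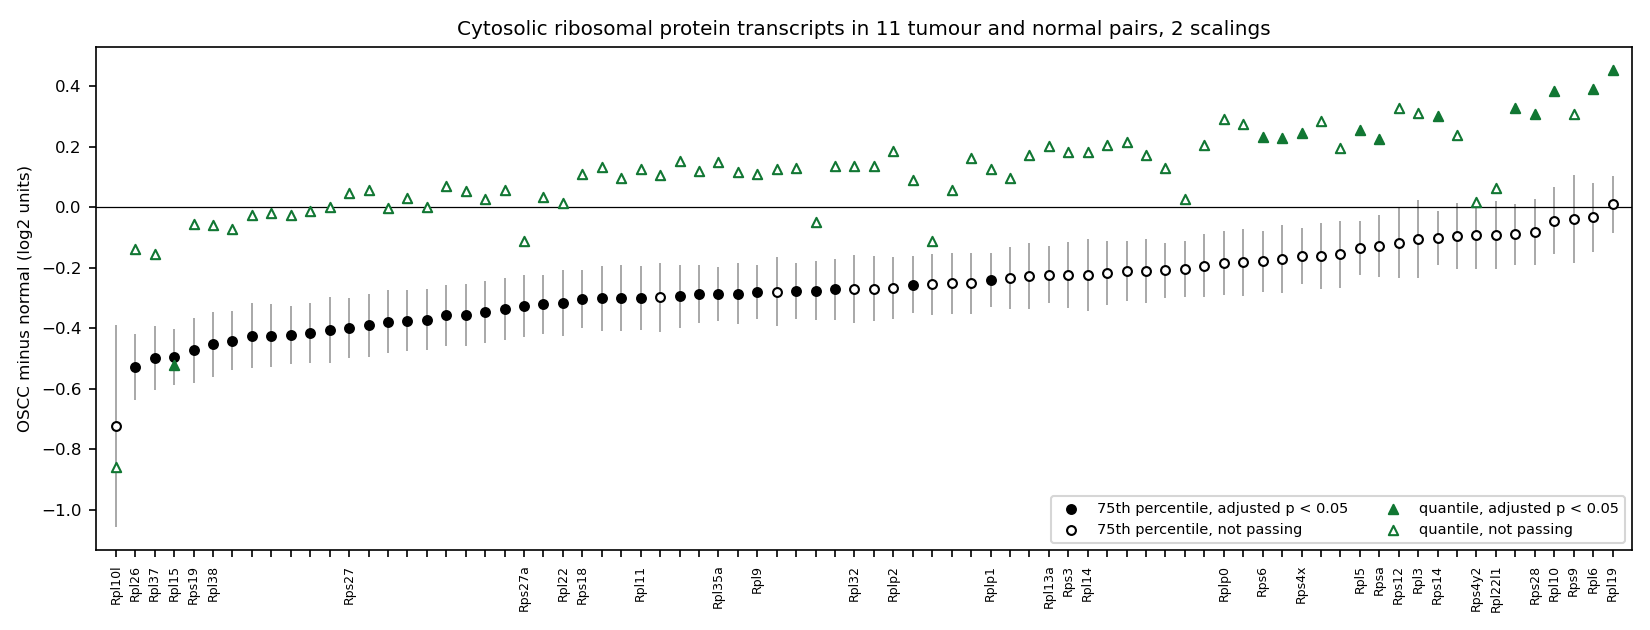
OSCC minus normal in log2 units (vertical axis) for the 78 cytosolic ribosomal protein genes, ordered along the horizontal axis by their mean difference over 11 pairs on the 75th percentile scale (circles, bars show 1 SE, names given for part of the genes); triangles give the same genes after quantile normalization, and filled symbols passed an adjusted p below 0.05. The circles run from -0.72 for Rpl10l to 0.01 for Rpl19, and the triangles of most genes lie higher, with a median of 0.13 and Rpl15 and Rpl10l as the lowest.

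Single rats show the same dependence. On the 75th percentile scale the median member difference ran from -0.75 in animal 24 to -0.01 in animal 21 and was below 0 in all 11 pairs, with 43 to 77 of the 78 members lower in each. Set against the median of all probes of the same pair, the members lay 0.86 lower in animal 24 and 0.37 higher in animal 26. After quantile normalization the median was negative in animals 21 (-0.20), 22 (-0.18) and 24 (-0.39) and between 0.08 and 0.38 in the other 8. Those 3 animals were also the ones whose skeletal muscle markers were not lower in the OSCC piece: their median muscle marker difference on that scale was 0.74, 0.30 and 0.73, against -3.65 to -0.78 in the others. The part of muscle in the member differences was not tested.

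The pieces differed in tissue make-up. Of 10 skeletal muscle markers 5 fell and 1, Myh2, rose, and the summed signal of the 10, relative to the array's 75th percentile, ran from 991 to 2256 in normal pieces and from 82.2 to 2913 in OSCC. All 7 serous gland markers rose, with sums of 0.212 to 2.87 in normal and 2.53 to 6305 in OSCC, 5 of 6 fibroblast markers rose, and 3 of 5 endothelial markers fell. Of the squamous markers Krt5 and Krt14 were bright in both groups and differed by -0.08 (SE 0.36) and 0.29 (SE 0.45), and 1 of 6 squamous markers, Dsg3, rose. Of the immune lists, 4 of 5 macrophage, 5 of 6 neutrophil, 5 of 6 T cell and 3 of 5 B and plasma cell markers rose and 1 neutrophil marker fell. Among the neutrophil markers 1 was well above background on no array. Of 8 proliferation genes 0 rose and 0 fell, with a median difference of 0.29. All these counts are on the 75th percentile scale, where 16.2% of all probes rose and 27.9% fell. After quantile normalization 3 T cell markers rose, 0 neutrophil markers fell and 0 squamous markers rose. The part of these cells in the member differences was not tested. In bulk tissue, fewer cells of a type and less RNA per cell cannot be told apart.

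**Figure D2:**
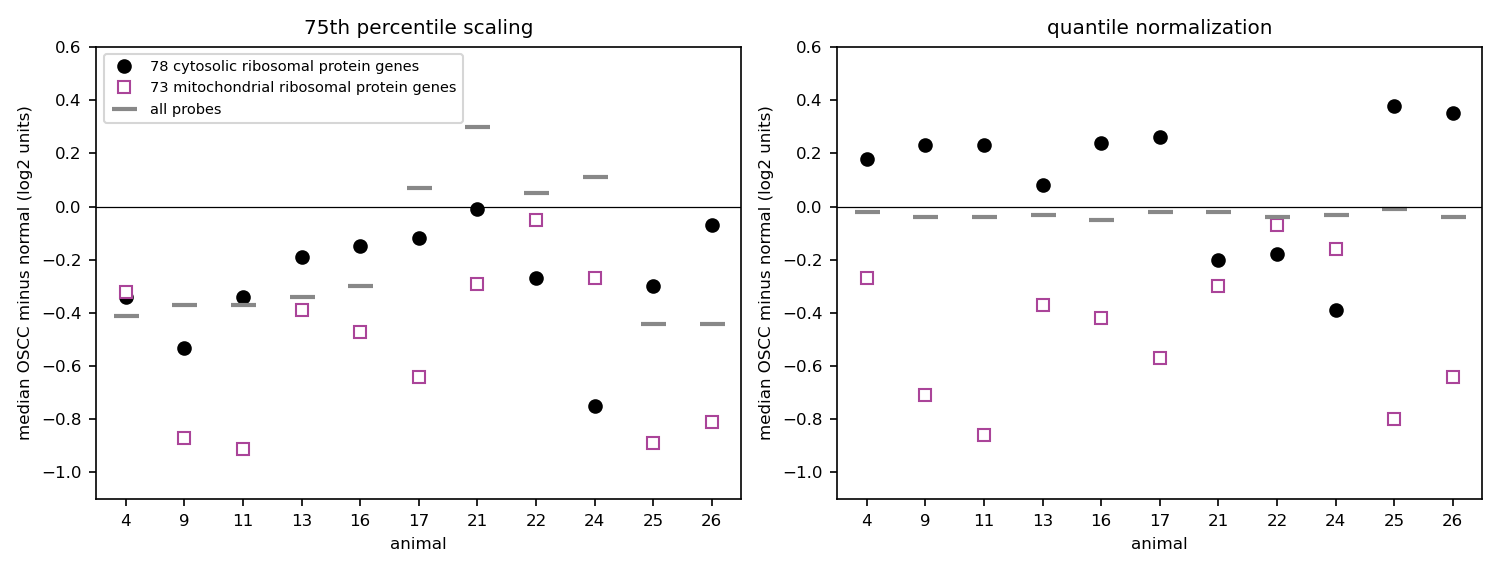
Median OSCC minus normal difference in log2 units (vertical axis) in each of the 11 rats (horizontal axis) for 78 cytosolic ribosomal protein genes (circles), 73 mitochondrial ribosomal protein genes (squares) and all 30367 probes (short horizontal marks), on the 75th percentile scale (left) and after quantile normalization (right). On the right the circles lie below 0 in animals 21, 22 and 24 only, and the mitochondrial median is below the cytosolic one in 9 of 11 rats.

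Although the common level moved with the scaling, the order of the genes did so less. Across the 78 members, which are not independent replicates and share the same arrays, Spearman's rho between their differences on the 75th percentile scale and after quantile normalization was 0.85, and it was 0.88 with cyclic loess. Of the 10 lowest members on the first scale, 7 were among the 10 lowest after quantile normalization, and 7 of the 10 highest were shared likewise.

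Rpl26, a large subunit protein at the exit of the peptide tunnel, came next after Rpl10l at the low end of this order. Its log2 expression was 6.32 at lowest, 6.70 at the median and 7.22 at highest in normal tissue, and 5.86, 6.07 and 6.56 in OSCC. The groups overlapped, yet every one of the 11 OSCC pieces was below the normal piece of its rat, by 0.14 in animal 21 to 0.96 in animal 24. The mean difference was -0.53 (SE 0.11, adjusted p = 0.0033), a ratio of 0.693, and after quantile normalization it was -0.14 with an adjusted p of 0.25.

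Rpl37, a zinc-finger protein of the large subunit, fell by 0.50 on the log2 scale (SE 0.11, adjusted p = 0.0036) and was lower in 11 of 11 pairs. Rpl15, also of the large subunit, fell by 0.50 (SE 0.09, adjusted p = 0.0019) and was lower in 11 of 11 pairs. It was also the 1 member that passed as lower after quantile normalization and with cyclic loess, with -0.52 after quantile normalization (adjusted p = 5e-04) and -0.53 with cyclic loess (adjusted p = 0.00075), whereas with normexp it did not pass (adjusted p = 0.095) and Rpl26 was the 1 member that did (adjusted p = 0.045). The only Rpl15 probe was dim, with a mean of -0.43 in normal pieces against a median of 6.24 over the members. Quantile normalization and cyclic loess shift probes by brightness, so its fall there cannot be set beside the values of brighter members. Its normal pieces lay between -0.62 and -0.21 and its OSCC pieces between -1.25 and -0.68, without overlap.

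Rps19, the small subunit protein mutated in many patients with Diamond-Blackfan anaemia, fell by 0.47 (SE 0.11, adjusted p = 0.0052). Normal values were 6.56 at lowest, 6.78 at the median and 7.09 at highest, against 6.0, 6.35 and 6.62 in OSCC. Every OSCC piece was below its own normal piece, although the brightest OSCC value exceeded the dimmest normal one. Rpl38, known for its role in translating homeobox messenger RNAs in the embryo, fell by 0.45 (SE 0.11, adjusted p = 0.0067) and was lower in 11 of 11 pairs. For both genes the quantile difference was near 0, at -0.06 (adjusted p of 0.70 for Rps19 and 0.67 for Rpl38).

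At the other end Rpl19, a large subunit protein often used as a reference gene, differed by 0.01 (SE 0.09, adjusted p = 0.94). Its values ran from 6.38 through a median of 6.60 to 6.75 in normal tissue and from 6.36 through 6.59 to 6.96 in OSCC, and it was lower in 5 of 11 pairs. After quantile normalization it stood 0.45 higher in OSCC (adjusted p = 0.0021). Rpl26 lay below Rpl19 in 11 of 11 pairs on either scale, by a mean of 0.54 (SD 0.28) on the first, where the pair was picked for its distance in this order, so that the count is a description.

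The next members in the order were Rpl6 (-0.03, SE 0.12), Rps9 (-0.04, SE 0.14), Rpl10 (-0.04, SE 0.11) and Rps28 (-0.08, SE 0.11), with adjusted p-values between 0.54 and 0.83. Rpl6 stood above the median member of its pair in all 11 rats. It was named for its high place in this order, so that this count is a description. After quantile normalization Rpl6 (0.39), Rpl10 (0.38) and Rps28 (0.31) rose and Rps9 (0.31) did not pass, with an adjusted p of 0.13. The members that rose under quantile normalization included Rpl5, Rpl6, Rpl10, Rpl19, Rps4x, Rps6, Rps14, Rps20, Rps28 and Rpsa.

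Among proteins of the P stalk, which recruits elongation factors, Rplp1 fell by 0.24 (SE 0.09, adjusted p = 0.047). Rplp0 differed by -0.19 (SE 0.11, adjusted p = 0.16) and Rplp2 by -0.27 (SE 0.10, adjusted p = 0.052), and Rplp2 was nonetheless lower in 11 of 11 pairs. After quantile normalization these 3 genes stood at 0.13, 0.29 and 0.19 with adjusted p-values of 0.15 to 0.34.

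Rpl5 and Rpl11, which together with 5S RNA bind Mdm2 when ribosome assembly is disturbed, differed by -0.13 (SE 0.09, adjusted p = 0.22) and -0.30 (SE 0.11, adjusted p = 0.038). Only the second passed on this scale, and only Rpl5 passed after quantile normalization, where it stood 0.26 higher (adjusted p = 0.015) and Rpl11 stood at 0.13 (adjusted p = 0.40). Rps6, the small subunit protein phosphorylated by S6 kinase, differed by -0.18 (SE 0.10, adjusted p = 0.16) and after quantile normalization by 0.23 (adjusted p = 0.031). Rpsa, also known as the laminin receptor precursor, differed by -0.13 (SE 0.10, adjusted p = 0.30) and after quantile normalization by 0.22 (adjusted p = 0.014).

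Of the remaining genes with known roles or used as references, Rps18 fell by 0.30 (SE 0.10, adjusted p = 0.027) and was lower in 11 of 11 pairs. Rps27a, made as a fusion with ubiquitin, fell by 0.33 (SE 0.10, adjusted p = 0.026). Rpl13a (-0.22), Rpl32 (-0.27) and Rps3 (-0.22) had adjusted p-values of 0.069, 0.065 and 0.11, and Rps3 was lower in 11 of 11 pairs. Rpl13a, Rpl32, Rps3 and Rps18 changed sign after quantile normalization, while Rps27a stayed at -0.11 (adjusted p = 0.38).

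By subunit, 27 of 47 large subunit genes fell (57.4%) and 10 of 31 small subunit genes (32.3%), with medians of -0.28 and -0.21, beside 27.9% of all probes and 40.3% of the 3037 brightest that fell on this scale. Members with a TOP tract at the annotated start had a median of -0.29 (24 genes, 15 fell) and those without one a median of -0.22 (38 genes, 14 fell). After quantile normalization these medians were 0.11 and 0.15. Both splits are descriptions without a test. The GC percent of the probe was weakly related to the difference across members, with Pearson's r of 0.12 and Spearman's rho of 0.078 over 78 probes on the same arrays.

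The steadiest members over pairs were Rpl5, Rps14, Rpl35a, Rpl9 and Rplp1, with SDs of 0.152, 0.154, 0.158, 0.159 and 0.163. Of these Rpl35a (-0.29, adjusted p = 0.025) and Rpl9 (-0.28, adjusted p = 0.027) were lower in 11 of 11 pairs, though their means turned to 0.15 and 0.11 after quantile normalization. Rps14 differed by -0.10 (adjusted p = 0.35) and, after quantile normalization, by 0.30 (adjusted p = 0.0055). The most variable were Rpl10l (SD 1.21), Rps9 (0.451), Rpl3 (0.377), Rpl14 (0.33) and Rps12 (0.321). In Rps9 the spread came mainly from the normal piece of animal 26 at 4.47, since the other normal pieces ran from 5.36 to 5.88 and OSCC from 5.26 to 5.70. In Rpl3, Rpl14 and Rps12 the lowest pair was animal 24, with -1.08, -0.84 and -0.69, and the means were -0.11, -0.22 and -0.12 with adjusted p-values of 0.50, 0.14 and 0.41.

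Paralogs of ribosomal proteins can replace the standard protein in particular tissues, and the difference between the paralog's change and that of its partner within each rat does not shift when a whole array is scaled up or down. Of the pairs with both genes among the members, Rpl22l1, the paralog of Rpl22, moved up relative to Rpl22 by 0.22 (SD 0.17, n = 11) in 10 of 11 rats. The exact two-sided sign-flip test gave p = 0.0039 and 0.012 after adjustment over the 3 such pairs, the smallest p that 11 pairs allow being 0.00098. Rpl22 itself fell by 0.32 (SE 0.11, adjusted p = 0.034 by limma), was lower in 11 of 11 pairs and stood at 0.01 after quantile normalization, whereas Rpl22l1 differed by -0.09 (SE 0.11, adjusted p = 0.50). Rpl22l1 ran from 3.39 to 4.02 in normal and from 3.44 to 4.09 in OSCC. The contrast depended on scaling by brightness, since it was 0.05 (adjusted p = 0.37 over 5 contrasts) after quantile normalization and 0.12 (0.054) with cyclic loess.

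Rpl10l, a retrogene copy of Rpl10 known from testis, gave the widest values. Normal pieces ran from -3.27 to -1.08 and OSCC pieces from -4.67 to 0.41, and animal 11 held the highest OSCC value with a rise of 2.19 within its pair. The contrast with Rpl10 was -0.68 (SD 1.29, exact p = 0.11, adjusted p = 0.17 over the 3 pairs), and without animal 11 it was -0.98 (adjusted p = 0.020 over 5 contrasts). Rps4y2, which the array places on chromosome 4 rather than Y, differed from its partner Rps4x by 0.07 (SD 0.41, exact p = 0.60). Rps4x was at -0.16 (adjusted p = 0.16) and Rps4y2 at -0.09 (adjusted p = 0.50).

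Rpl3l and Rps27l carry other identifiers in the symbol column and were found through the array description after the data were seen. Rpl3l is the paralog of Rpl3 found in skeletal and heart muscle. It fell by 2.71 on the log2 scale (SE 0.64, adjusted p = 0.0062), a ratio of 0.153, and after quantile normalization it differed by -2.62 (adjusted p = 0.010). The probes assigned to the pair are shown because the contrast rests on them, Rpl3 at chr7:118314786-118314845 and Rpl3l at chr10:13991825-13991884 of the rn4 build, on the minus and plus strand.
Rpl3 probe: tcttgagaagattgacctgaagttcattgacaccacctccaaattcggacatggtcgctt
Rpl3l probe: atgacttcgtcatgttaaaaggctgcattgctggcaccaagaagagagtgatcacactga
In normal pieces Rpl3l lay between 3.97 and 4.82 with a median of 4.58. In OSCC it was 1.39, 1.79, -0.58, -2.39, 1.97 and 3.15 in animals 4, 9, 11, 13, 16 and 17, and -0.59 and 0.74 in animals 25 and 26. In animals 21, 22 and 24 it was 4.25, 4.69 and 4.89, within or just above the normal range. These are the same 3 rats in which the muscle markers were not lower. Rpl3 differed by -0.11 (SE 0.13), so the contrast of Rpl3l with Rpl3 was -2.60 (SD 2.62, exact p = 0.0098, adjusted p = 0.016 over 5 contrasts), with 8 of 11 rats lower. Eef1a2, the muscle and neuron form of elongation factor 1A and 1 of the muscle markers used here, fell by 1.98 (SE 0.48, adjusted p = 0.0070). Its OSCC values in animals 21, 22 and 24 were 5.11, 5.06 and 5.29, each above the normal piece of the same rat, while the other 8 lay between 0.67 and 3.55.

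Rps27l, a p53-responsive paralog of Rps27, differed by 0.04 (SE 0.11, adjusted p = 0.76), with 2.84 to 3.57 in normal and 2.79 to 3.83 in OSCC. Rps27, the standard gene, fell by 0.40 (SE 0.10, adjusted p = 0.0085), was lower in 11 of 11 pairs and stood at 0.05 after quantile normalization. The contrast was 0.44 (SD 0.33, exact p = 0.0020, adjusted p = 0.0098 over 5 contrasts) in 10 of 11 rats. Under quantile normalization it was 0.12 (adjusted p = 0.37) and with cyclic loess 0.19 (adjusted p = 0.11).

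**Figure D3:**
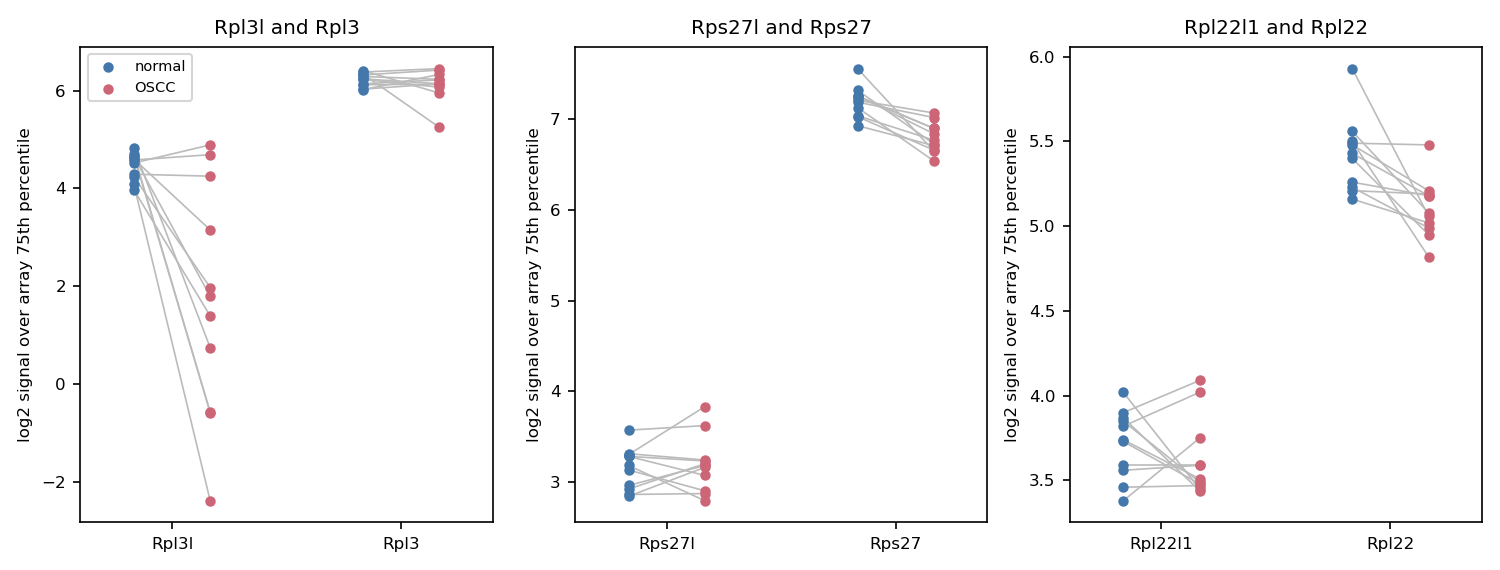
Log2 signal over the array's 75th percentile (vertical axis) for 3 paralog pairs in 11 normal and 11 OSCC pieces, each point 1 array and each line 1 rat. Rpl3l falls in most OSCC pieces while Rpl3 stays near 6, and Rps27l and Rpl22l1 lie level between the groups while Rps27 and Rpl22 are lower in OSCC in every rat on this scale, but not after quantile normalization, where their means are 0.05 and 0.01.

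Many members were read by several probes, and these did not always give the same answer. Of 46 genes with more than 1 probe, 44 had at least 2 probes well above background on all 22 arrays. The range between a gene's probes had a median of 0.093 and was below 0.2 in 37 of the 44, but the sign differed in 5 and the call at an adjusted p of 0.05 in 17. Ribosomal protein genes have many processed pseudogenes, and the signals of near-identical copies in 1 probe cannot be told apart here.

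The genes in the next sentences were singled out after their values were seen. Rps27a was split most, with -0.33 (adjusted p = 0.026) from its brighter probe and 0.22 (SE 0.14, adjusted p = 0.22) from the other. By the array's rn4 positions the probes overlap by 22 bases, of which 21 carry the same letter, and the brighter probe, chr14:110559660-110559719 on the minus strand, is printed with the shared positions in capitals.
Rps27a brighter probe: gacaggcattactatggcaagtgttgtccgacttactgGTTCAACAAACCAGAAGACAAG
Over the pairs the other probe ran from -0.26 in animal 22 to 1.23 in animal 4, and the brighter one from -0.75 to 0.10. For Rps19 the second brightest probe fell by 0.82 (SE 0.18, adjusted p = 0.0039) against 0.47 from the brightest, and the third differed by -0.30 (SE 0.12, adjusted p = 0.051). The first and second probes lie at chr1:80177549-80177608 and chr1:80180904-80180963 of rn4, on the plus strand.
Rps19 brightest probe: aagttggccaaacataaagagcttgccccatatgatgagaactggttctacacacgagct
Rps19 second probe: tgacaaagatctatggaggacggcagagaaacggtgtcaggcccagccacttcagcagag
The second probe gave 6.64 to 7.05 in the normal pieces. In OSCC it was 5.15 to 5.59 in animals 4, 9, 16, 17 and 24, and 6.15 to 6.72 in the other 6, while the brightest probe ran from 6.0 to 6.62 over all OSCC pieces. One Rps23 probe read -6.65 in the OSCC of animal 16 and between 2.66 and 3.73 in the other OSCC pieces, while the other Rps23 probes gave 6.66 and 5.04 on that array. The remaining Rpl37a probe, placed by the array on chromosome 9 rather than 5, differed by 0.10 (SE 0.12) where the brighter ones gave -0.36 and -0.43.

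**Figure D4:**
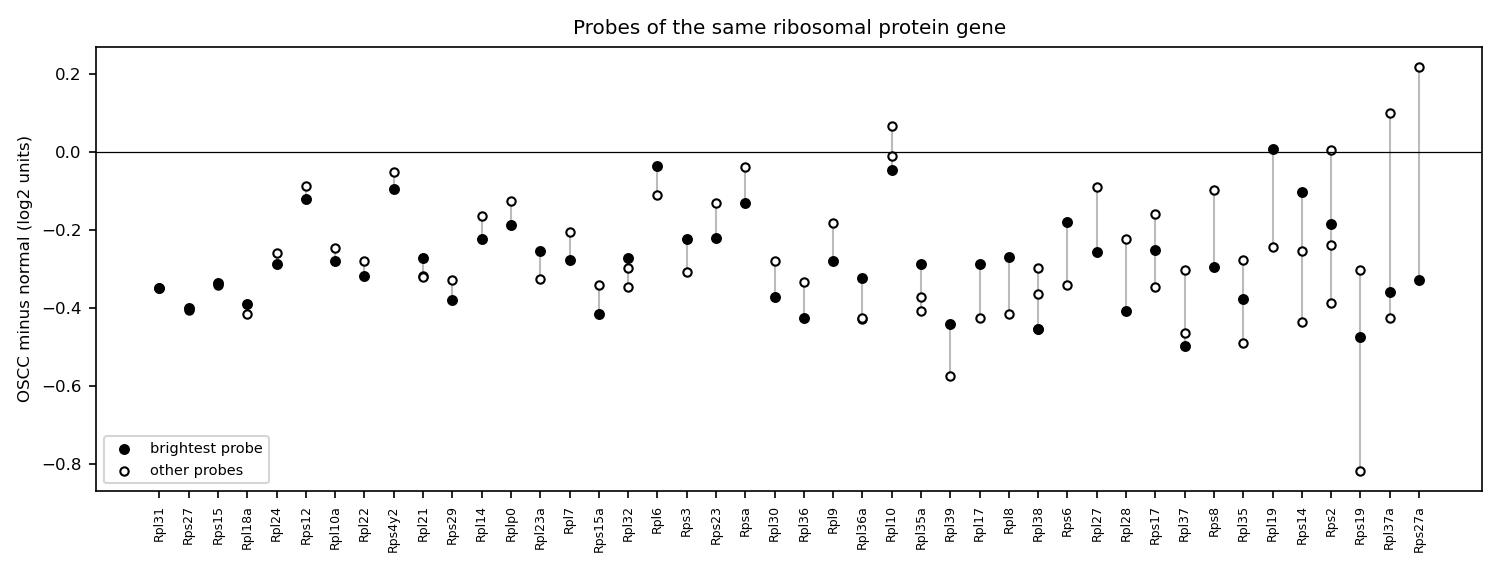
OSCC minus normal in log2 units (vertical axis) for every probe well above background on all 22 arrays, for the 44 members with at least 2 such probes (horizontal axis, ordered by the range between probes); filled circles mark the brightest probe. Most ranges are short, and the widest belong to Rps27a, Rpl37a and Rps19.

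Other genes of translation were counted with the same test. Among cytosolic ribosomal components outside the naming rule, Fau (-0.26, adjusted p = 0.053), whose product carries the small subunit protein eS30, Rack1 (-0.06, adjusted p = 0.65), a scaffold on the small subunit, and Rpl36al (-0.04, adjusted p = 0.86, with 10 OSCC values) did not pass. After quantile normalization Rack1 rose, at 0.32 (adjusted p = 0.014).

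Mitochondrial ribosomal proteins, which translate the few messages of mitochondrial DNA, were lower in OSCC on the 75th percentile, quantile and cyclic loess scales. Of 73 such genes 55 fell and 1, Mrps10, rose, with a median of -0.57, where 27.9% of all probes fell, 16.2% rose and their median was -0.24. After quantile normalization 54 fell (18.7% of all probes did) and 1 rose (15.9%) with a median of -0.46, and cyclic loess gave 48 (16.9%) and 2 (17.5%). The lowest were Mrps36, also a subunit of the oxoglutarate dehydrogenase complex, with -1.46 (SE 0.26, adjusted p = 0.0013) and Mrpl14 with -1.09 (SE 0.17, adjusted p = 7.3e-04), each lower in 10 of 11 rats. The mitochondrial median was below the cytosolic one in 8 of 11 rats on the 75th percentile scale, and the exceptions were animals 4, 22 and 24. In animals 21, 22 and 24 the mitochondrial median was -0.29, -0.05 and -0.27, against -0.91 to -0.32 in the other 8, and the part of muscle in this fall was not tested. With scan day as a term in limma 0 of the 73 passed, 30 being lower and 0 higher at an unadjusted p below 0.05, while 13 fell in the pairs scanned within 1 day. Both fits took the tissue difference from the same pairs, those of animals 4 and 9. No share of all probes is given beside the counts of 30 and 13.

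Ribosome biogenesis factors, which assemble the subunits in the nucleolus, had 8 of 73 genes higher and 2 lower with a median of 0.10, where 16.2% of all probes rose and 27.9% fell. The 8 became 4 without any of animals 4, 9, 11 or 13, 5 without 16, 25 or 26 and 15 without 24, and the 2 became 1 without 4, 9, 11, 22 or 25. Ddx18, an RNA helicase of this group, rose by 0.55 (SE 0.14, adjusted p = 0.010) and Rrp1b, a nucleolar protein, fell by 0.59 (SE 0.10, adjusted p = 9.6e-04). Of 19 RNA polymerase I genes 2 rose and 4 fell, the 4 becoming 2 without animal 9, 11, 25 or 26, and they included Rrn3, the initiation factor of that polymerase, with 0.63 (SE 0.14, adjusted p = 0.0038) in 11 of 11 rats. Polr2l, a subunit shared by the 3 nuclear polymerases, fell by 0.65 (SE 0.12, adjusted p = 0.0015). These 4 genes kept their sign after quantile normalization.

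Of 39 initiation factor genes 5 rose and 3 fell with a median of 0.03, where 16.2% of all probes rose and 27.9% fell. After quantile normalization 15 rose (15.9% of all probes did) and 2 fell (18.7% did). The 5 became 3 without animal 4, 9, 11, 13, 25 or 26, and the 3 became 1 without 9, 11, 13, 16, 25 or 26. Eif2s2, the beta subunit of eIF2, rose by 0.70 (SE 0.13, adjusted p = 0.0018) in 11 of 11 rats and Eif1a by 0.57 (SE 0.16, adjusted p = 0.016) in 8 of 11. Of 12 elongation factor genes 2 rose and 1, Eef1a2, fell, and after quantile normalization 6 rose and 1 fell, beside the same shares of all probes. The 2 became 1 when any animal but 17 or 24 was left out. Eef1e1, which belongs to the multi-tRNA synthetase complex rather than to elongation itself, rose by 0.41 (SE 0.11, adjusted p = 0.015). The other that rose, named after its values were seen, was the exchange factor subunit Eef1b2 (0.30, SE 0.11, adjusted p = 0.045).

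Of 17 regulators of ribosomal protein synthesis 4 rose and 4 fell, where 16.2% of all probes rose and 27.9% fell. The 4 higher became 2 without animal 4, 13 or 21 and 1 without 11, 25 or 26. Maf1, a repressor of RNA polymerase III, fell by 0.88 (SE 0.17, adjusted p = 0.0023) in 10 of 11 rats, with changes near 0 in animals 21, 22 and 24 (0.02, -0.24 and -0.10). Rictor, Tsc1 and Mycn were counted among those that rose, but on no normal array and on at most 3 OSCC arrays was their signal well above background, so no size is given. The others that passed were named after their values were seen. Rptor (-0.64, SE 0.11), the S6 kinase Rps6kb2 (-0.51, SE 0.11) and Tsc2 (-0.44, SE 0.10) fell, and Eif4ebp1 (0.51, SE 0.15) rose, with adjusted p-values of 9.7e-04, 0.0046, 0.0068 and 0.021. The list itself was drawn largely from the mTOR pathway. Its members Mtor (-0.26), Rps6kb1 (0.19), Eif4ebp2 (-0.15), Larp1 (0.08), Rheb (-0.01) and Akt1 (0.00) did not pass, with adjusted p-values of 0.075 to 0.97.

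**Figure D5:**
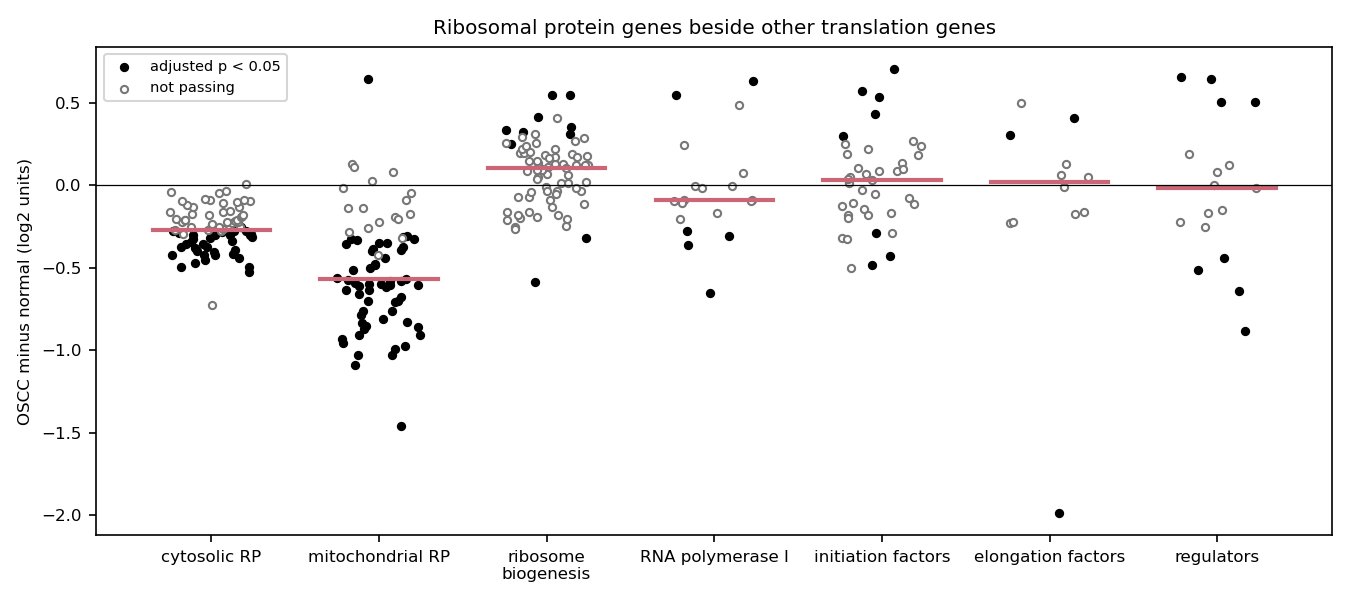
OSCC minus normal in log2 units (vertical axis) for single genes of the cytosolic ribosomal proteins (RP) and 6 other groups (horizontal axis, spread sideways for display), on the 75th percentile scale; filled points passed an adjusted p below 0.05 and red lines mark medians. The cytosolic group has a median of -0.27, which turns to 0.13 after quantile normalization, and the mitochondrial group lies lower with a median of -0.57.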

How the data were processed

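Total RNA of 11 paired OSCC and normal tongue pieces was hybridised to 1-colour Agilent arrays. The authors deposited scanner files made with Agilent Feature Extraction (version 9.5.3.1 per the file headers), whose processed signals are background-subtracted intensities on a linear scale, and a value table that holds the same signals as a ratio to the 75th percentile of each array. Spots (42877 non-control spots, 30367 probes) were log2 transformed and averaged by probe without outlier spots, of which 9196 over all arrays were left out. The averages were then set against the array's 75th percentile. That percentile lay between 237 and 1414 signal units. The number of arrays limits the precision.

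Differences were tested with limma 3.58.1 in R 4.3.3, in a model of rat and tissue, and p-values were adjusted by Benjamini-Hochberg across the whole array with a threshold of 0.05. The pairing comes from the labels, which number the rats; deviations from the group means of the 2 pieces of a rat correlated between -0.21 and 0.24 (median -0.02). Each rat is 1 replicate. Paralog contrasts used an exact sign-flip test over pairs. Other scalings, background correction (normexp, offset 50), filters, blocks and left-out animals were tried. The fit was tested on simulated data with known changes.

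Genes named with values were those of the paralog contrasts, 14 members with textbook roles or use as reference genes, the 5 highest and 5 lowest members, the 5 most and 5 least variable ones, and the 2 largest passing genes of each pathway list. Members and lists were chosen with earlier results of these data known, so no p-value is adjusted over a list alone. Symbols are those of the array design, matched to RefSeq (GRCr8) for 77 of the 78 members; probe positions are rn4. Marker lists of squamous, serous gland, muscle, fibroblast, endothelial, immune and proliferating cells served to describe the pieces. Results for some genes are not reported here.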

Additional observations from a re-analysis of the deposited data

How the results depend on the processing

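Scaling decided the direction of the ribosomal protein genes. The number of members that fell was 37 on the 75th percentile scale, 1 after quantile normalization, 1 with cyclic loess, 67 on the array median, 18 on the 75th percentile of detected probes, 1 with normexp background, 0 with scan day as a term, 0 in the pairs scanned within 1 day, 10 in the pairs scanned on 2 days and 60 by the methods' paired t-test before adjustment (52 after). The number that rose was 0 except after quantile normalization (11) and cyclic loess (18), where the median turned to 0.13 and 0.14. It stayed at 33 to 50 lower with the authors' scaled values, the probe filter, the slide block, all probes averaged, saturated spots left out or animals 21, 22 and 24 left out. Without the animal block (no replicate block) 51 members fell, which is within 1.5 times, and 56 mitochondrial genes. Leaving out 1 animal gave 19 to 41 members lower (19 without animal 9, 22 without animal 11 and 22 without animal 25) and 0 to 1 at 2-fold, the 1 being Rpl10l without animal 11. The mitochondrial count of 55 became 36 with normexp, 0 with scan day as a term, 13 in the pairs scanned within 1 day and 45 to 56 with 1 animal left out. The fit with scan day as a term took its tissue difference from animals 4 and 9 alone, the pairs scanned within 1 day. Of all probes 18.9% fell with the authors' scaled values and 27.9% with saturated spots left out. No share of all probes is given for the paired t-test, the pairs of 1 or 2 days, the probe filter or the slide block. Nor is one given for all probes averaged, the fit without the animal block or left-out animals. Those counts are therefore not set against the array.

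After quantile normalization and with cyclic loess, in this order, the sign turned for Rpl10 (0.38 and 0.41), Rpl11 (0.13 and 0.14), Rpl13a (0.20 and 0.23), Rpl14 (0.18 and 0.20), Rpl22 (0.01 and 0.04), Rpl22l1 (0.06 and 0.16), Rpl3 (0.31 and 0.31), Rpl32 (0.14 and 0.13), Rpl35a (0.15 and 0.15), Rpl5 (0.26 and 0.25), Rpl6 (0.39 and 0.38), Rpl9 (0.11 and 0.11), Rplp0 (0.29 and 0.33), Rplp1 (0.13 and 0.14), Rplp2 (0.19 and 0.22), Rps12 (0.33 and 0.35), Rps14 (0.30 and 0.32), Rps18 (0.11 and 0.13), Rps27 (0.05 and 0.07), Rps28 (0.31 and 0.31), Rps3 (0.18 and 0.19), Rps4x (0.25 and 0.24), Rps4y2 (0.02 and 0.10), Rps6 (0.23 and 0.22), Rps9 (0.31 and 0.33) and Rpsa (0.22 and 0.24). The array median turned Rpl19 (-0.19) and Rps27l (-0.16). The percentile of detected probes turned Rpl10 (0.04), Rpl6 (0.05), Rps28 (0.00) and Rps9 (0.05). Normexp turned Rpl10 (0.02), Rpl19 (-0.05) and Rps27l (-0.02), scan day and the pairs of 1 day Rpl19 (-0.12 in both) and Rps4y2 (0.36 in both), the pairs of 2 days Rpl10 (0.02) and Rpl6 (0.00), and all probes averaged Rpl10 (0.00), Rpl19 (-0.12) and Rpl22l1 (0.04). Without animals 21, 22 and 24 Rpl19 (-0.01), Rpl3 (0.05), Rpl6 (0.05), Rps28 (0.01) and Rps9 (0.10) changed sign. With 1 animal left out Rpl19 ran from -0.02 to 0.04, Rps27l from -0.01 to 0.09, Rpl6 from -0.07 to 0.04 and Rps9 from -0.16 to 0.02.

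The contrast of Rpl10l with Rpl10 passed after quantile normalization (-1.24) and cyclic loess (-1.32) and ran from -0.98 to -0.54 with 1 animal left out. Those of Rpl22l1 (0.05 and 0.12) and Rps27l (0.12 and 0.19) no longer passed under these scalings. Rps4y2 against Rps4x turned to -0.23 and -0.14, to -0.07 in the pairs of 2 days, and ran from -0.01 to 0.12 with 1 animal left out. In the pairs of 1 day the contrasts of Rpl3l (-2.59), Rpl22l1 (0.22) and Rps27l (0.71) did not pass, since 2 pairs cannot reach the threshold, and that of Rpl3l with the 9 other pairs was -2.61 (adjusted p = 0.065). The Rpl3l and Rps27l contrasts were added after the data were seen. The cause of these changes was not tested.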
